A study of Mus musculus with 48 samples.

Results

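The 36 genes described here are interferon response genes, transcripts that cells raise when they sense viral or self nucleic acid or are exposed to interferon. They were found as the rows of the deposited count table whose symbol is on a fixed list of 36 symbols: all 36 were present, 1 row each, among 47729 genes. The list names genes by function and sets no threshold on a measured value, but it was chosen with earlier results of these data known. Counts of members set beside shares of all genes are therefore descriptive. The study sequenced poly(A) RNA of snap-frozen fat from male mice that carry Cth (Cth+/+) or lack it (Cth-/-). Cth encodes cystathionine gamma-lyase, the enzyme that completes the synthesis of cysteine from methionine. Mice of each genotype ate a control diet or a diet without cystine (called cystine free or cystine deficient in the labels) for 6 days, and 3 depots were taken: visceral white fat (EFAT), subcutaneous white fat (SFAT) and brown adipose tissue (BAT). The 12 groups (genotype, diet and depot) held 4 libraries each, 48 in all; the labels name no other allele, agent or age, and name the knockout as Cth-/- without a tissue or promoter. The comparison asked of these genes is how the diet response of Cth-/- mice differs from that of Cth+/+ mice in each depot.

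Interferon response genes share a common mode of control. Foreign or misplaced RNA and DNA are sensed by receptors such as Ifih1 (MDA5), Ddx58 (RIG-I) and Zbp1, whose signal leads to transcription of the type I interferons. Interferon then acts through its receptor and the JAK kinases on transcription factors, Stat2 and Irf9 among them, which bind a short DNA element, the interferon-stimulated response element (ISRE), before the start of each target gene. The products include the sensors and factors themselves, enzymes and binding proteins that stop viral RNA and protein from being made, and GTPases that attack vacuoles of intracellular microbes. In fat, macrophages and other immune cells of the stroma, and adipocytes as well, can express this program.

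The levels given below are CPM, a gene's count relative to the library total after TMM scaling within the depot, and changes are log2 fold changes ± SE from the edgeR quasi-likelihood test, with p-values adjusted over all genes tested in the depot by the method of Benjamini and Hochberg. Values for a group are always given in the order of the library numbers in the labels: 1, 2, 3 and 4 for Cth+/+ control, 7, 8, 10 and 11 for Cth+/+ cystine-free, 12, 13, 14 and 15 for Cth-/- control, and 16, 17, 18 and 20 for Cth-/- cystine-free. The labels do not say that each number is a separate animal, and the p-values rest on the spread between libraries of a group, which may be technical. Library totals ranged from 22067552 to 46031102 reads in BAT, from 16245822 to 39001433 in SFAT and from 18711864 to 36110236 in EFAT. Cth itself had 8 to 389 reads in the 24 Cth+/+ libraries and 0 to 6 in the 24 Cth-/- libraries, as the labels have it. The labelled tissue fits its markers: 6 adipocyte markers summed to at least 6083 CPM in every library, and brown adipocyte markers to at least 2476 CPM in BAT against at most 1699.9 CPM in the white depots. Some libraries stood apart. Replicate 7 of BAT (Cth+/+ cystine-free) held the highest level of all 16 BAT libraries for 33 of the 36 members. Replicate 14 of SFAT was high in B cell markers, replicate 20 of SFAT in mitochondrial transcripts, and replicate 11 of EFAT in brown adipocyte markers. Values without them stand beside the counts and the leading BAT values below.

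Promoter sequences show what the members have in common before any level is compared. RefSeq promoter windows (build GRCm38.p6, 250 bases before to 50 bases after the start) were at hand for 27 of the 36 members: all but Usp18, Mx1, Dhx58, Rtp4, Ifi27, Mx2, Parp14, Zbp1 and Oas2. The core of the ISRE, GAAA followed by any 2 bases and GAAA, stood on one strand or the other in 16 of the 27 (59.3%), against 3.99% of the 27025 genes with a window. The letters TTC, any 3 bases and GAA, known as the gamma-activated site, stood in 7 of the 27 (25.9%), against 9.55% of all. Printed here are the windows of the 5 members that hold the ISRE core and passed the interaction test described below in the most depots, ties broken by the smallest p. Bases are in lower case and ISRE core matches in capitals, which read TTTC, 2 bases and TTTC where the match lies on the other strand. Adjoining capitals are matches that overlap by their GAAA.
Ifit1: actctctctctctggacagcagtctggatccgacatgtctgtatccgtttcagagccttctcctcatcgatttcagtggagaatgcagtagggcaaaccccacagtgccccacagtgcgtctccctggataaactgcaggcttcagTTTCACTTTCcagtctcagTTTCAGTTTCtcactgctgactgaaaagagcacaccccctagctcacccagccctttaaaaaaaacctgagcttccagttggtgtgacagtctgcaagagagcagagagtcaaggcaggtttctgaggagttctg
Ifi205: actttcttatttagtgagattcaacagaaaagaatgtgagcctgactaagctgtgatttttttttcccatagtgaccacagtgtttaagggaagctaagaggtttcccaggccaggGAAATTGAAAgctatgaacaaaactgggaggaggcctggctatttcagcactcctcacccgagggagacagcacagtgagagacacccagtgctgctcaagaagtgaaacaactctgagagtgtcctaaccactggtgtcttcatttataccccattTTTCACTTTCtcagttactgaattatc
Oas1a: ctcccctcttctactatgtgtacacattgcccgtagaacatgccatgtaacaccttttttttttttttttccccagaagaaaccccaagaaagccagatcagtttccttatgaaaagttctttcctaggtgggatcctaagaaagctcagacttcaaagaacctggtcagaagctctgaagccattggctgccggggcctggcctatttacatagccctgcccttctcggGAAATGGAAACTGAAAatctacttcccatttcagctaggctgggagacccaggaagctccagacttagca
Gbp2: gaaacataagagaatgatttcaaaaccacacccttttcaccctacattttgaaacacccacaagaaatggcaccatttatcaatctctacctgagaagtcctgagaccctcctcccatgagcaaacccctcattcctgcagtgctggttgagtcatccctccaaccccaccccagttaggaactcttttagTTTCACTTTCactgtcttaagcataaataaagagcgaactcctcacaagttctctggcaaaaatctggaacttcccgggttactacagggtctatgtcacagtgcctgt
Isg15: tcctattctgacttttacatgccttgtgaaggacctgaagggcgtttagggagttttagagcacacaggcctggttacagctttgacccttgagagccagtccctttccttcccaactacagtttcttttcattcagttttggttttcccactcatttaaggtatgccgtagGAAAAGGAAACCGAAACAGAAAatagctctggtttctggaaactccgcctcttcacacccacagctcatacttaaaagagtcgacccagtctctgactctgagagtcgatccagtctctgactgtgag
The Ifit1 window is chr19:34640639-34640938 on the plus strand, and its matches begin 104 and 85 bases before the start. That of Ifi205 is chr1:174031706-174032005 on the minus strand, with a match 134 bases before and a second 23 bases after the start. The Oas1a window, chr5:120907476-120907775 on the minus strand, holds matches at 20 and 14 bases before the start, and the Gbp2 window, chr3:142620413-142620712 on the plus strand, has a match at 59 bases. In the Isg15 window, chr4:156200769-156201068 on the minus strand, the matches at 78, 72 and 66 bases form a run. A match is a string of letters and no evidence of binding here. Among the 27 members with a window, the interaction passed as lower in SFAT for 13 of 16 with the core and 9 of 11 without it. The counts were 6 of 15 tested and 5 of 11 in BAT, and 1 of 16 and 1 of 11 in EFAT.

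Some members lie side by side. Rsad2 and Cmpk2 neighbour each other on chromosome 12, and Mx1 and Mx2 on chromosome 16. So do Ifit2, Ifit3 and Ifit1 on chromosome 19, Gbp7, Gbp3 and Gbp2 on chromosome 3, and Oasl2 with Oasl1 and Oas2 with Oas3 and Oas1a in separate parts of chromosome 5. Several have close copies (Ifit3 and Ifit3b, Oas1a and Oas1g, Mx1 and Mx2, the Gbp genes), and how the estimated counts split reads between copies is uncertain for these.

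In Cth-/- mice the cystine-free diet lowered many of these genes in SFAT and BAT and few in EFAT. In SFAT 25 of the 36 members fell and none rose, where 13.6% of all 16555 genes tested fell (25.4% changed in either direction). The median change of the members was -0.78 on the log2 scale, against 0.03 over all genes tested. In BAT 11 of the 35 members tested fell and none rose (10.2% of 14528 genes fell, 18% changed), with a median of -0.84 against -0.01 over all genes, and 34 of 35 values were negative. In EFAT 6 fell and 2 rose of 36 (14.3% of 17248 genes fell and 14.5% rose, 28.8% in all), a share near that of all genes, with a median of -0.13 against 0.07. Of the 11 members that fell in BAT, 8 were among the 25 that fell in SFAT: Ddx58, Irf9, Oasl2, Cmpk2, Bst2, Rtp4, Xaf1 and Gbp2. Gbp2 alone fell in all 3 depots. The BAT count of 11 was 7 without replicate 13, 16 or 17, 6 without 14 or 15 and 5 without 18 or 20, and it was 22 without replicate 7, a Cth+/+ library that enters the spread. The EFAT count of 8 was 4 without replicate 12 and 5 without 14, 17 or 20. These are bulk samples, in which fewer cells of a type and less RNA per cell cannot be told apart.

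In Cth+/+ mice the same diet gave positive changes for 34 of 36 members in SFAT, all of them short of the test, with a median of 0.63 against -0.02 over all genes. In BAT 33 of 35 were positive with a median of 0.57 against 0.01 over all genes, but without replicate 7 these were 21 of 35 and 0.12. In the BAT comparison Ifi205 alone rose, with or without replicate 7 (0.0551% of all genes rose, 0.0826% changed), and in SFAT none passed (0.0664% of all genes changed). At an unadjusted p under 0.05 there were 29 members in SFAT and 16 in BAT (5 without replicate 7), and DESeq2 called 20 in SFAT and 4 in BAT. Without replicate 11 of SFAT, the Cth+/+ cystine-free library with the lowest member levels of its group, edgeR called 14. In EFAT no member passed, 3 had an unadjusted p under 0.05, DESeq2 called 0, 0% of all genes changed, and the median was 0.02.

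The genotype by diet interaction, the diet response in Cth-/- minus that in Cth+/+, was negative for most members outside EFAT. It passed as lower for 30 of 36 members in SFAT (12.4% of all genes lower, 21.7% in either direction), with a median of -1.41. In BAT it passed as lower for 15 of 35 (4.32% lower, 6.42% in either direction), with a median of -1.50 (-1.02 without replicate 7), and all 15 were among the 30 of SFAT. In EFAT it passed as lower for 2 of 36 (5.35% lower, 10.4% in either direction), Oas1a and Ifi35, and the median was -0.01. No member passed as higher in any depot. The BAT count was 9 without replicate 7, and it fell to 5 when replicate 4 was left out, to 6 without replicate 18, to 8 without 14, 15 or 17, and to 9 without 2, 3 or 16. The EFAT count was 5 without replicate 16, 4 without 15 and 1 without 1, 4, 8, 12, 13, 14, 17 or 20. In SFAT it stayed between 28 and 32 when any single library was left out. Without replicates 14 and 20 together SFAT gave 24 members by diet in Cth-/- mice and 30 for the interaction, and without replicate 11 EFAT gave 8 and 2.

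**Figure D1:**
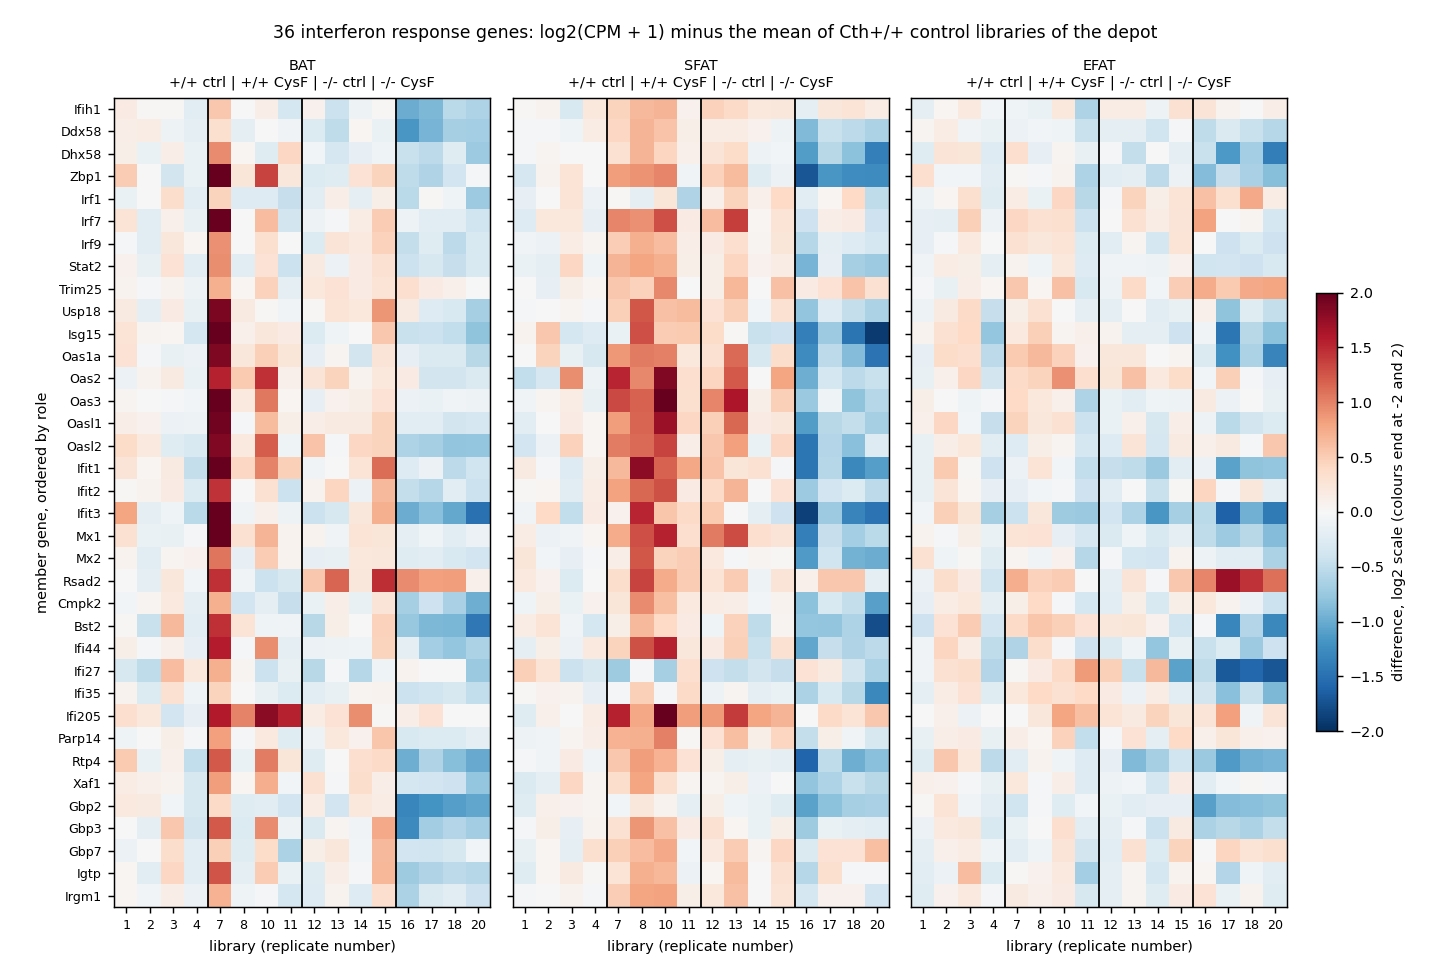
Each cell is the log2(CPM + 1) of a member gene (row) in a library (column, by replicate number) minus the mean of the 4 Cth+/+ control libraries of the same depot; black lines separate the 4 groups. The Cth-/- cystine-free libraries are blue for most members in BAT and SFAT, the Cth+/+ cystine-free libraries of SFAT are red, and replicate 7 stands out in BAT.

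Over the members, the median difference from the Cth+/+ control mean (on log2(CPM + 1)) put every Cth-/- cystine-free library below 0: -0.52 to -0.37 in BAT, -0.79 to -0.33 in SFAT and -0.41 to -0.06 in EFAT. The Cth+/+ cystine-free libraries ranged from 0.17 to 0.86 in SFAT, all above 0, and from -0.09 to 1.25 in BAT, where replicate 7 gave the highest value. Cth-/- libraries on the control diet ran from -0.01 to 0.47 in SFAT and from -0.11 to 0.36 in BAT. In EFAT the cystine-free libraries of Cth+/+ mice ran from -0.33 to 0.18 and the control libraries of Cth-/- mice from -0.23 to 0.08, across 0 in each case.

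**Figure D2:**
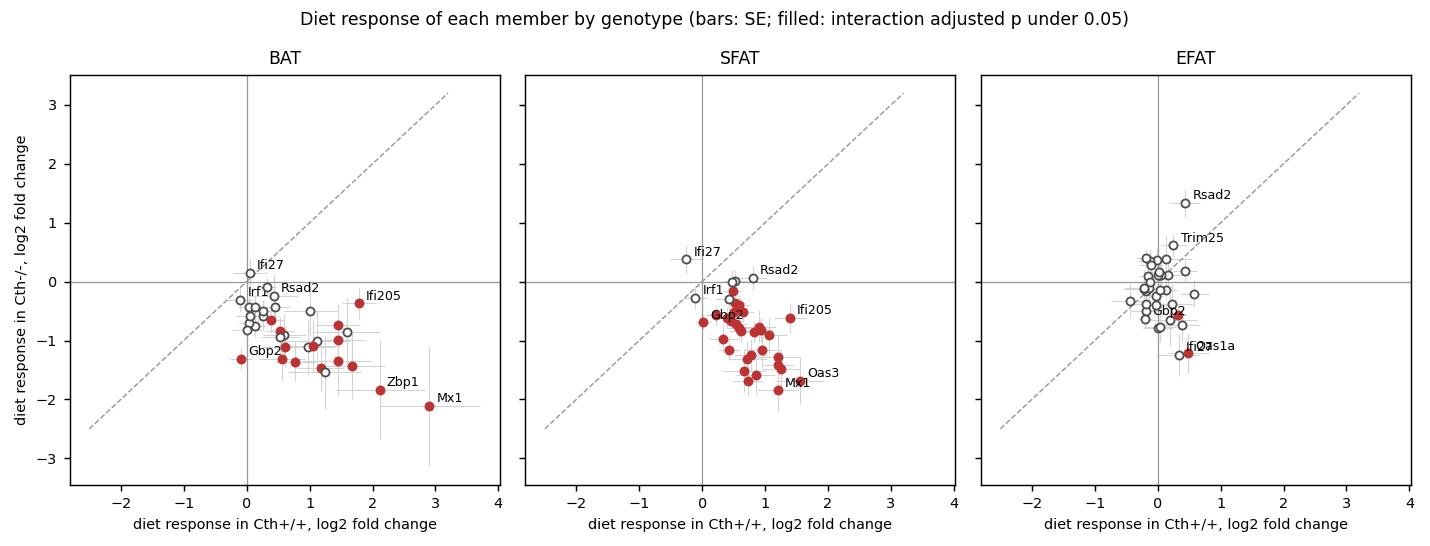
Each point is a member gene, with its log2 fold change by diet in Cth+/+ mice on the x axis and in Cth-/- mice on the y axis, bars for the SE, a dashed line of equal response, and filled points for an interaction with adjusted p under 0.05. In BAT, with replicate 7 included, and in SFAT nearly all points lie to the right of 0 and below it, and in EFAT they gather around 0 with Rsad2 high and Oas1a and Ifi27 low.

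Markers of several other cell types fell by diet in Cth-/- mice, in part also in EFAT. Of all genes 13.6% fell in SFAT, 10.2% in BAT and 14.3% in EFAT. Of 12 rows of 11 macrophage marker genes (Itgam has 2 rows), 8 of 12 fell by diet in Cth-/- SFAT, 8 of 12 in EFAT and 9 of 11 tested in BAT, and Mertk rose in SFAT and EFAT. Their summed level in BAT was 56.9 to 93.2 CPM in Cth+/+ control, 87.4 to 153 in Cth+/+ cystine-free, 69.3 to 95.6 in Cth-/- control and 45.4 to 52.2 in Cth-/- cystine-free libraries. In SFAT the 4 groups, in the same order, spanned 909 to 1215, 966 to 2679.8, 960.0 to 2692 and 564 to 955 CPM, and in EFAT 754 to 915, 761 to 1060.3, 928 to 1038 and 550.0 to 704. In BAT and EFAT the Cth-/- cystine-free sums lay below those of every other library, and in SFAT they overlapped with Cth+/+ control. Whether macrophages had a part in the changes of the members was not tested. None of the macrophage rows was at 0 throughout a group except the second row of Itgam, which had no reads in 2 BAT groups.

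Monocyte and dendritic cell markers fell in Cth-/- mice for 6 of 7 in SFAT, 2 of 7 in EFAT and 3 of 4 tested in BAT, and their summed level spanned 60.8 to 205 CPM in Cth-/- control and 28.5 to 43.9 in Cth-/- cystine-free SFAT, and 73.8 to 99.7 and 33.0 to 47.1 CPM in EFAT. B cell markers fell for 8 of 8 in SFAT, 1 of 8 in EFAT (near the 14.3% of all genes) and 2 of 3 tested in BAT. Their sum spanned 159.9 to 659.9 CPM in Cth-/- control SFAT and 42.7 to 106 on the cystine-free diet, and 216 to 1021 and 44.1 to 52.8 CPM in EFAT. Fibroblast and progenitor markers fell for 5 of 6 in SFAT, 5 of 6 in BAT and, with 1 that rose, 3 of 6 in EFAT. Of 10 T and NK cell markers, which include the main source of interferon gamma, 1 passed as lower in SFAT and 2 as higher in EFAT. Both are near the shares of all genes, 13.6% lower in SFAT and 14.5% higher in EFAT. Plasmacytoid dendritic cells, a rich source of type I interferon, had 5 markers: the sum was 0 to 1.08 CPM in Cth-/- cystine-free BAT, 1.26 to 4.96 in Cth-/- control BAT and under 10 CPM in most libraries, with Ccr9 at 0 in all Cth-/- cystine-free BAT libraries and Klk1 at 0 in those of SFAT. Skeletal muscle markers fell for 5 of 6 in BAT, and brown adipocyte markers rose for 4 of 4 in SFAT. The 5 plasmacytoid markers were Siglech, Ccr9, Klk1, Cox6a2 and Pacsin1. Their BAT sum was highest, at 10.1 CPM, in Cth+/+ cystine-free replicate 8, which also had the highest skeletal muscle sum, 2276 CPM. Both sums were lowest in Cth-/- cystine-free replicate 17, at 0 and 1.97 CPM. The low plasmacytoid sum in BAT thus cannot be told apart from the fall of muscle markers. The part of these cell types in the changes of the members was not tested.

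**Figure D3:**
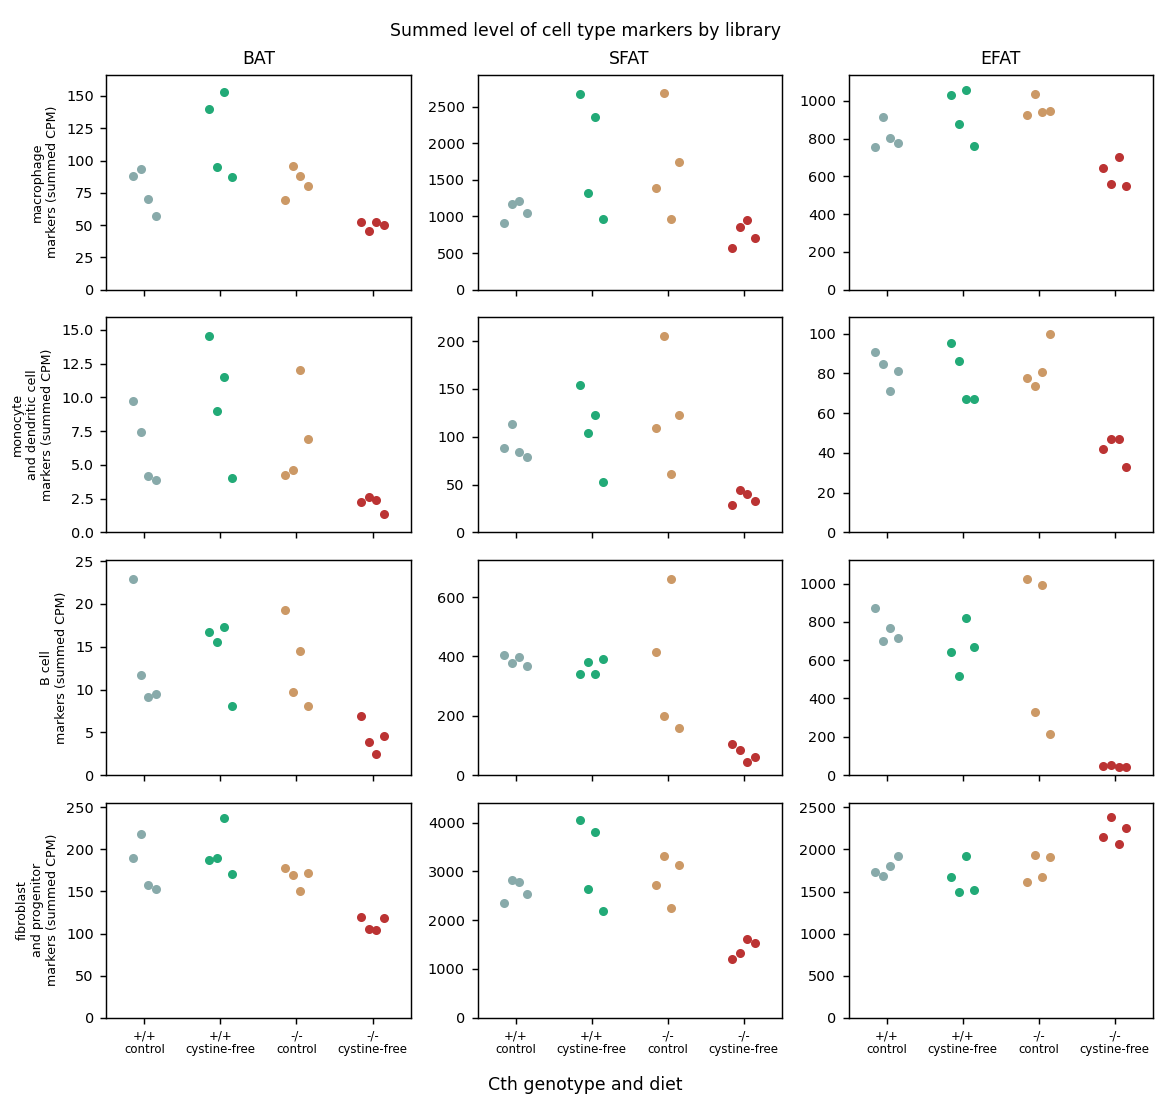
Points are single libraries: the summed CPM of macrophage, monocyte and dendritic cell, B cell, and fibroblast and progenitor markers (rows) in each depot (columns), by genotype and diet on the x axis. The Cth-/- cystine-free libraries are the lowest group in every panel of BAT and SFAT, and in EFAT for the first 3 rows but not for fibroblast and progenitor markers.

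Counts by role, here and in the next paragraphs, stand against the shares of all genes. By diet in Cth-/- mice 13.6% fell in SFAT, 10.2% in BAT and 14.3% in EFAT. The interaction passed as lower for 12.4%, 4.32% and 5.35% in the same order. A single member called is no result about its role. Some of the sensors fell in Cth-/- mice. Of 4 members (Ifih1, Ddx58, Dhx58 and Zbp1), 3 fell in SFAT, 2 in BAT and 1 in EFAT, and the interaction passed for 4 in SFAT, 1 in BAT and 0 in EFAT. Ddx58 (ENSMUSG00000040296, chromosome 4, 40203773 to 40239828, minus strand; these and the following positions are GRCm38) is RIG-I, which binds the ends of viral RNA. Ddx58 in BAT stood at 22.6, 22.9, 19.2 and 18.1 CPM in Cth+/+ control libraries, 26.0, 17.8, 20.6 and 19.5 in Cth+/+ cystine-free libraries, 16.8, 14.2, 21.2 and 18.8 in Cth-/- control libraries and 8.64, 10.3, 12.7 and 12.4 in Cth-/- cystine-free libraries. Ddx58 in SFAT stood at 53.8, 54.3, 52.4 and 61.8 CPM in Cth+/+ control libraries, 74.6, 89.5, 82.9 and 60.3 in Cth+/+ cystine-free libraries, 61.4, 61.7, 58.7 and 51.6 in Cth-/- control libraries and 29.8, 40.6, 38.3 and 35.3 in Cth-/- cystine-free libraries. Ddx58 in EFAT stood at 46.6, 50.1, 42.9 and 41.1 CPM in Cth+/+ control libraries, 41.6, 43.4, 42.3 and 32.7 in Cth+/+ cystine-free libraries, 39.6, 39.7, 34.1 and 44.2 in Cth-/- control libraries and 31.3, 36.6, 32.8 and 30.1 in Cth-/- cystine-free libraries. In BAT and SFAT every Cth-/- cystine-free library lay below every other library of the depot, and in EFAT the 2 Cth-/- groups overlapped. The diet response of Ddx58 in Cth-/- mice was -0.66 ± 0.12 (adjusted p = 0.0013) in SFAT, -0.70 ± 0.16 (adjusted p = 0.007) in BAT and -0.16 ± 0.12 (adjusted p = 0.32) in EFAT. Its interaction was -1.13 ± 0.17 (adjusted p = 0.00053) in SFAT, -0.73 ± 0.22 (adjusted p = 0.059) in BAT and 0.03 ± 0.16 (adjusted p = 0.91) in EFAT.

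Ifih1 (ENSMUSG00000026896, chromosome 2, 62595798 to 62646255, minus strand) is MDA5, the sensor of long double-stranded RNA. Ifih1 in BAT stood at 12.0, 10.9, 10.9 and 9.11 CPM in Cth+/+ control libraries, 16.0, 10.6, 11.8 and 8.18 in Cth+/+ cystine-free libraries, 11.4, 7.69, 9.92 and 10.9 in Cth-/- control libraries and 4.85, 5.27, 7.07 and 6.62 in Cth-/- cystine-free libraries. Ifih1 in SFAT stood at 44.0, 45.1, 34.7 and 50.2 CPM in Cth+/+ control libraries, 59.0, 68.4, 69.7 and 46.1 in Cth+/+ cystine-free libraries, 60.1, 56.5, 49.9 and 50.7 in Cth-/- control libraries and 38.0, 50.5, 52.4 and 48.0 in Cth-/- cystine-free libraries. Ifih1 in EFAT stood at 30.8, 35.9, 40.1 and 33.4 CPM in Cth+/+ control libraries, 33.0, 31.6, 40.6 and 22.4 in Cth+/+ cystine-free libraries, 38.9, 38.6, 32.4 and 43.1 in Cth-/- control libraries and 41.7, 36.7, 35.3 and 38.5 in Cth-/- cystine-free libraries. Only in BAT were the Cth-/- cystine-free libraries all below the rest; the Cth-/- groups overlapped in both white depots. Ifih1 responded in Cth-/- mice to the diet with -0.17 ± 0.14 (adjusted p = 0.42) in SFAT, -0.76 ± 0.19 (adjusted p = 0.013) in BAT and 0.10 ± 0.15 (adjusted p = 0.65) in EFAT, and it was the sensor that did not pass in SFAT. The SFAT interaction of Ifih1 passed at -0.65 ± 0.20 (adjusted p = 0.03). The changes of Ifih1 in Cth-/- mice differed between EFAT and BAT by 0.80 ± 0.24 (adjusted p = 0.018).

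Zbp1, a sensor of Z-form nucleic acid, had the second largest interaction of BAT. Zbp1 in BAT stood at 1.23, 0.564, 0.221 and 0.434 CPM in Cth+/+ control libraries, 5.94, 0.863, 3.03 and 0.831 in Cth+/+ cystine-free libraries, 0.298, 0.330, 0.929 and 1.13 in Cth-/- control libraries and 0.0998, 0.0308, 0.205 and 0.544 in Cth-/- cystine-free libraries. The BAT groups of Cth-/- mice overlapped, and replicates 7 and 10 carried the high Cth+/+ cystine-free level, with 269 reads in that group against 23 in the Cth-/- cystine-free group. Zbp1 in SFAT stood at 12.6, 17.0, 19.7 and 16.2 CPM in Cth+/+ control libraries, 29.5, 30.9, 32.7 and 15.3 in Cth+/+ cystine-free libraries, 22.7, 25.6, 13.6 and 14.9 in Cth-/- control libraries and 4.25, 6.63, 6.26 and 6.14 in Cth-/- cystine-free libraries. In SFAT the Cth-/- cystine-free libraries lay below all others, which did overlap among themselves. The interaction of Zbp1 was -3.94 ± 1.10 (adjusted p = 0.045) in BAT, where it did not pass without replicate 7 at -3.16 ± 1.03 (adjusted p = 0.078), and -2.41 ± 0.36 (adjusted p = 0.00046) in SFAT, and its diet response in Cth-/- SFAT was -1.69 ± 0.26 (adjusted p = 0.00035). Dhx58 (LGP2), which modulates the other RNA sensors, fell in Cth-/- mice with -1.16 ± 0.18 (adjusted p = 0.00034) in SFAT and -0.78 ± 0.24 (adjusted p = 0.027) in EFAT; its BAT value of -0.44 ± 0.24 (adjusted p = 0.22) did not pass.

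The signalling proteins and transcription factors (Irf1, Irf7, Irf9, Stat2, Trim25, Usp18 and Isg15) split by member. In Cth-/- mice 4 of 7 fell in SFAT, 1 fell in BAT and 1 rose in EFAT, and the interaction passed as lower for 5 in SFAT, 2 in BAT and 0 in EFAT. The counts of 1 are near the 10.2% of all genes that fell in BAT and the 14.5% that rose in EFAT. Irf9 and Stat2, which act in 1 complex, fell together in Cth-/- SFAT, with -0.52 ± 0.13 (adjusted p = 0.0069) for Irf9 and -0.79 ± 0.19 (adjusted p = 0.0063) for Stat2. Irf9 also fell in BAT, with -0.66 ± 0.21 (adjusted p = 0.039), where Stat2 gave -0.58 ± 0.24 (adjusted p = 0.1). Usp18, which removes Isg15 from proteins and damps the receptor, fell in SFAT with -0.85 ± 0.17 (adjusted p = 0.0027). Isg15, the ubiquitin-like modifier whose promoter is printed above, fell in SFAT with -1.51 ± 0.37 (adjusted p = 0.0076). The SFAT libraries of Isg15 held 9.14, 6.94, 4.75 and 4.85 CPM in Cth-/- control and 2.04, 3.73, 1.85 and 1.09 CPM in Cth-/- cystine-free mice, without overlap. Irf7, the factor that drives the interferon alpha genes, missed the threshold in Cth-/- SFAT with -0.77 ± 0.28 (adjusted p = 0.057) but passed the interaction with -1.66 ± 0.40 (adjusted p = 0.0086).

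Trim25 and Irf1, the most abundant of this role, went their own way. Trim25 (ENSMUSG00000000275, chromosome 11, 88999376 to 89020293, plus strand) is the ubiquitin ligase that activates RIG-I. Trim25 in BAT stood at 20.4, 18.9, 20.5 and 18.0 CPM in Cth+/+ control libraries, 32.3, 20.0, 27.2 and 17.1 in Cth+/+ cystine-free libraries, 22.6, 24.0, 22.0 and 23.8 in Cth-/- control libraries and 24.9, 21.8, 20.9 and 19.2 in Cth-/- cystine-free libraries. Trim25 in SFAT stood at 69.0, 61.9, 75.2 and 71.2 CPM in Cth+/+ control libraries, 101, 95.7, 136 and 68.6 in Cth+/+ cystine-free libraries, 75.0, 111, 69.0 and 104 in Cth-/- control libraries and 77.4, 85.0, 103 and 85.9 in Cth-/- cystine-free libraries. Trim25 in EFAT stood at 46.2, 42.7, 51.8 and 48.8 CPM in Cth+/+ control libraries, 69.1, 48.8, 71.7 and 38.1 in Cth+/+ cystine-free libraries, 43.9, 61.9, 45.3 and 67.0 in Cth-/- control libraries and 79.5, 68.5, 80.3 and 82.3 in Cth-/- cystine-free libraries. In EFAT the Cth-/- cystine-free libraries lay above all Cth-/- control libraries, and in BAT and SFAT these groups overlapped. The response of Trim25 in Cth-/- mice was 0.00 ± 0.19 (adjusted p = 0.99) in SFAT, -0.10 ± 0.15 (adjusted p = 0.7) in BAT and 0.62 ± 0.19 (adjusted p = 0.027) in EFAT, so that it rose in EFAT against most members that passed there. Its interaction in SFAT was -0.53 ± 0.27 (adjusted p = 0.18) and in EFAT 0.37 ± 0.27 (adjusted p = 0.38).

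Irf1 (ENSMUSG00000018899, chromosome 11, 53770014 to 53778374, plus strand) is a transcription factor induced mainly by interferon gamma. Irf1 in BAT stood at 12.3, 13.5, 17.5 and 11.6 CPM in Cth+/+ control libraries, 18.7, 11.1, 11.2 and 9.62 in Cth+/+ cystine-free libraries, 11.5, 14.9, 11.9 and 14.7 in Cth-/- control libraries and 9.00, 13.8, 12.8 and 7.76 in Cth-/- cystine-free libraries. Irf1 in SFAT stood at 38.0, 42.7, 51.5 and 39.2 CPM in Cth+/+ control libraries, 43.4, 37.4, 50.3 and 27.7 in Cth+/+ cystine-free libraries, 45.7, 58.2, 45.8 and 56.1 in Cth-/- control libraries and 36.4, 43.8, 56.2 and 29.5 in Cth-/- cystine-free libraries. Irf1 in EFAT stood at 25.0, 27.6, 33.6 and 22.5 CPM in Cth+/+ control libraries, 29.9, 24.4, 36.1 and 18.0 in Cth+/+ cystine-free libraries, 26.3, 37.0, 29.3 and 32.6 in Cth-/- control libraries and 41.1, 33.7, 46.3 and 29.8 in Cth-/- cystine-free libraries. The libraries of all 4 groups overlapped in each depot. No diet change of Irf1 passed in Cth-/- mice: the values were -0.28 ± 0.19 (adjusted p = 0.31) in SFAT, -0.31 ± 0.21 (adjusted p = 0.34) in BAT and 0.37 ± 0.20 (adjusted p = 0.17) in EFAT. The interaction of Irf1 in SFAT was -0.17 ± 0.27 (adjusted p = 0.71).

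The 5 members of the oligoadenylate synthetase family fell in Cth-/- SFAT (5 of 5). These enzymes (Oas1a, Oas2 and Oas3) turn double-stranded RNA into a signal that activates RNase L, and Oasl1 and Oasl2 are related proteins. In Cth-/- EFAT 1 of 5 fell and in BAT 1 of 4 tested, and the interaction passed as lower for 5 in SFAT, 3 in BAT and 1 in EFAT. Oas3 did not pass the filter on low counts in BAT, where it had 6 reads in the Cth-/- cystine-free group and 155 in the Cth+/+ cystine-free group, 117 of them in replicate 7. Oasl2 (ENSMUSG00000029561, chromosome 5, 114896936 to 114912234, plus strand) was the most abundant. Oasl2 in BAT stood at 4.59, 3.95, 2.65 and 2.49 CPM in Cth+/+ control libraries, 14.7, 3.95, 8.99 and 3.10 in Cth+/+ cystine-free libraries, 5.41, 3.24, 4.79 and 4.90 in Cth-/- control libraries and 1.84, 1.73, 1.50 and 1.53 in Cth-/- cystine-free libraries. Oasl2 in SFAT stood at 30.5, 37.0, 55.5 and 41.5 CPM in Cth+/+ control libraries, 82.4, 89.1, 104 and 44.0 in Cth+/+ cystine-free libraries, 58.6, 71.3, 36.7 and 53.6 in Cth-/- control libraries and 14.1, 26.4, 22.0 and 33.6 in Cth-/- cystine-free libraries. Oasl2 in EFAT stood at 18.5, 22.8, 24.2 and 17.8 CPM in Cth+/+ control libraries, 17.0, 22.5, 21.6 and 15.9 in Cth+/+ cystine-free libraries, 17.1, 24.9, 16.1 and 23.5 in Cth-/- control libraries and 22.3, 23.4, 20.3 and 30.4 in Cth-/- cystine-free libraries. The Cth-/- cystine-free libraries were below all Cth-/- control libraries in BAT and SFAT, and in EFAT these groups overlapped. The Cth-/- response of Oasl2 was -1.16 ± 0.30 (adjusted p = 0.01) in SFAT, -1.47 ± 0.40 (adjusted p = 0.018) in BAT and 0.35 ± 0.19 (adjusted p = 0.16) in EFAT, and its interaction was -2.11 ± 0.42 (adjusted p = 0.0031) in SFAT, -2.64 ± 0.55 (adjusted p = 0.01) in BAT and 0.48 ± 0.26 (adjusted p = 0.24) in EFAT. It was the member whose Cth-/- response differed between EFAT and each other depot in the upward direction: by 1.76 ± 0.46 (adjusted p = 0.0086) from BAT and by 1.47 ± 0.43 (adjusted p = 0.042) from SFAT.

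Oas2 (ENSMUSG00000032690, chromosome 5, 120730333 to 120749853, minus strand) followed in level. Oas2 in BAT stood at 1.30, 1.60, 1.81 and 1.27 CPM in Cth+/+ control libraries, 6.19, 2.59, 5.85 and 1.66 in Cth+/+ cystine-free libraries, 1.99, 2.39, 1.60 and 1.87 in Cth-/- control libraries and 1.78, 0.925, 0.922 and 1.04 in Cth-/- cystine-free libraries. Oas2 in SFAT stood at 10.7, 12.1, 30.2 and 14.2 CPM in Cth+/+ control libraries, 46.2, 31.0, 58.4 and 19.7 in Cth+/+ cystine-free libraries, 21.0, 37.6, 15.3 and 27.5 in Cth-/- control libraries and 7.31, 11.9, 10.4 and 11.1 in Cth-/- cystine-free libraries. Oas2 in EFAT stood at 4.38, 5.39, 6.92 and 3.59 CPM in Cth+/+ control libraries, 6.74, 7.14, 10.3 and 6.53 in Cth+/+ cystine-free libraries, 6.07, 7.89, 5.82 and 6.67 in Cth-/- control libraries and 4.74, 7.27, 4.86 and 4.32 in Cth-/- cystine-free libraries. In SFAT the 2 Cth-/- groups did not overlap, while in BAT and EFAT they did. Oas2 responded in Cth-/- mice with -1.29 ± 0.38 (adjusted p = 0.022) in SFAT, -0.74 ± 0.36 (adjusted p = 0.17) in BAT and -0.21 ± 0.23 (adjusted p = 0.52) in EFAT. Its interaction was -2.48 ± 0.53 (adjusted p = 0.0048) in SFAT, -2.19 ± 0.51 (adjusted p = 0.02) in BAT and -0.79 ± 0.33 (adjusted p = 0.12) in EFAT.

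Oas3 had the largest interaction of SFAT, -3.24 ± 0.55 (adjusted p = 0.0012). Oas3 in SFAT stood at 4.32, 4.79, 5.19 and 4.04 CPM in Cth+/+ control libraries, 12.9, 11.6, 23.3 and 5.97 in Cth+/+ cystine-free libraries, 10.0, 16.2, 5.07 and 6.78 in Cth-/- control libraries and 2.34, 4.26, 2.19 and 2.75 in Cth-/- cystine-free libraries. Cth-/- cystine-free libraries lay below all Cth-/- control and all Cth+/+ cystine-free libraries. Oasl1, known as a regulator of Irf7 translation, was in the leading 3 in both BAT and SFAT. Oasl1 in BAT stood at 0.787, 0.737, 0.516 and 0.521 CPM in Cth+/+ control libraries, 5.24, 0.611, 1.54 and 0.767 in Cth+/+ cystine-free libraries, 0.794, 0.852, 0.855 and 1.22 in Cth-/- control libraries and 0.399, 0.401, 0.273 and 0.297 in Cth-/- cystine-free libraries. Oasl1 in SFAT stood at 4.09, 4.97, 5.68 and 5.12 CPM in Cth+/+ control libraries, 9.62, 12.3, 18.7 and 6.95 in Cth+/+ cystine-free libraries, 7.29, 12.1, 5.64 and 5.93 in Cth-/- control libraries and 1.74, 3.05, 3.29 and 2.75 in Cth-/- cystine-free libraries. The Cth-/- cystine-free libraries were the lowest 4 in each of these depots. The Oasl1 interaction was -3.11 ± 0.76 (adjusted p = 0.025) in BAT and -2.74 ± 0.43 (adjusted p = 0.00073) in SFAT, while its Cth-/- diet response passed in SFAT with -1.48 ± 0.31 (adjusted p = 0.0031) and not in BAT with -1.43 ± 0.55 (adjusted p = 0.086). Without replicate 7 the BAT interaction of Oasl1 was -2.02 ± 0.46 (adjusted p = 0.02), and its Cth-/- response there passed at -1.43 ± 0.32 (adjusted p = 0.0069). Oas1a missed the interaction threshold in BAT with -2.45 ± 0.77 (adjusted p = 0.071) and passed it in SFAT and EFAT. Oas1a in EFAT stood at 3.01, 4.81, 4.70 and 2.12 CPM in Cth+/+ control libraries, 5.50, 6.07, 5.24 and 3.80 in Cth+/+ cystine-free libraries, 4.26, 4.30, 3.49 and 3.70 in Cth-/- control libraries and 2.68, 0.948, 1.92 and 0.812 in Cth-/- cystine-free libraries. In EFAT the 4 Cth-/- cystine-free libraries held less Oas1a than any Cth-/- control or Cth+/+ cystine-free library. The EFAT interaction of Oas1a was -1.70 ± 0.46 (adjusted p = 0.034) and the Cth-/- response -1.22 ± 0.33 (adjusted p = 0.015).

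**Figure D4:**
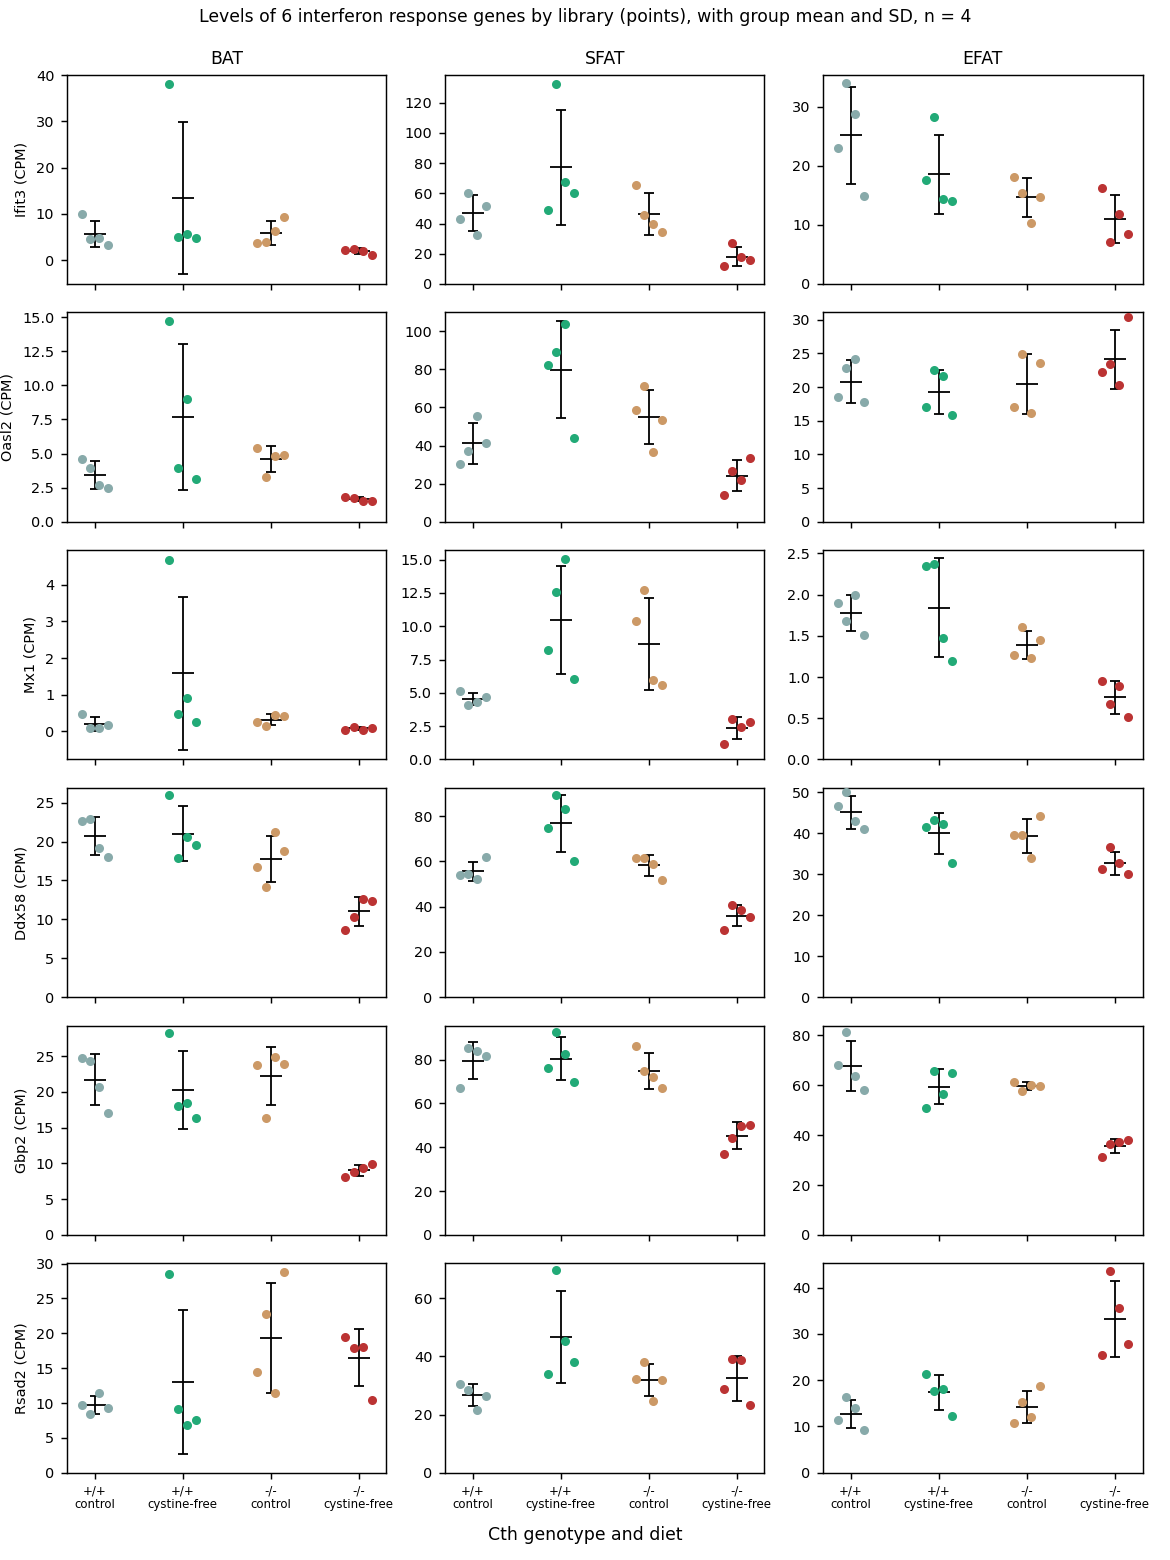
CPM of 6 members (rows) in each depot (columns); points are libraries, horizontal bars the mean and whiskers the SD of the 4 libraries of a group, and each panel has its own y axis. The 4 Cth-/- cystine-free libraries lie below all others for Ifit3 and Ddx58 in BAT and SFAT and for Oasl2 in BAT. They do so too for Mx1 in SFAT and EFAT and for Gbp2 in each depot. For Rsad2 in EFAT they lie above all others.

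The IFIT proteins, which hold back translation of viral RNA, fell as a set of 3 in Cth-/- SFAT, and none passed in BAT or EFAT. Without replicate 7 the 3 passed in Cth-/- BAT. Ifit1 then gave -0.99 ± 0.31 (adjusted p = 0.039), Ifit2 -0.90 ± 0.22 (adjusted p = 0.012) and Ifit3 the value given below. Ifit3 (ENSMUSG00000074896, chromosome 19, 34583531 to 34588731, plus strand) was the most abundant. Ifit3 in BAT stood at 9.89, 4.55, 4.90 and 3.33 CPM in Cth+/+ control libraries, 38.0, 5.00, 5.69 and 4.83 in Cth+/+ cystine-free libraries, 3.67, 4.01, 6.35 and 9.26 in Cth-/- control libraries and 2.16, 2.53, 2.08 and 1.24 in Cth-/- cystine-free libraries. Ifit3 in SFAT stood at 43.2, 60.3, 32.2 and 51.3 CPM in Cth+/+ control libraries, 48.7, 133, 67.2 and 59.9 in Cth+/+ cystine-free libraries, 65.7, 45.5, 40.0 and 34.1 in Cth-/- control libraries and 11.8, 27.2, 17.7 and 15.7 in Cth-/- cystine-free libraries. Ifit3 in EFAT stood at 23.1, 34.1, 28.7 and 14.9 CPM in Cth+/+ control libraries, 17.6, 28.3, 14.4 and 14.1 in Cth+/+ cystine-free libraries, 18.2, 15.3, 10.2 and 14.8 in Cth-/- control libraries and 16.3, 7.17, 11.9 and 8.42 in Cth-/- cystine-free libraries. In BAT and SFAT all Cth-/- cystine-free libraries lay below all others of the depot, and in BAT replicate 7 exceeded the next Cth+/+ cystine-free library by far. Ifit3 fell with the diet in Cth-/- mice with -1.32 ± 0.31 (adjusted p = 0.0064) in SFAT; the BAT value was -1.54 ± 0.62 (adjusted p = 0.098) and the EFAT value -0.33 ± 0.29 (adjusted p = 0.42), short of the threshold. The interaction of Ifit3 was -2.04 ± 0.44 (adjusted p = 0.0047) in SFAT, -2.78 ± 0.85 (adjusted p = 0.064) in BAT and 0.12 ± 0.41 (adjusted p = 0.87) in EFAT. Without replicate 7 the BAT values of Ifit3 were -1.54 ± 0.34 (adjusted p = 0.0071) for the Cth-/- response and -1.41 ± 0.49 (adjusted p = 0.094) for the interaction.

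Ifit2 (ENSMUSG00000045932, chromosome 19, 34550694 to 34576419, plus strand) came next. Ifit2 in BAT stood at 4.59, 4.77, 5.12 and 3.53 CPM in Cth+/+ control libraries, 13.8, 4.49, 5.74 and 3.07 in Cth+/+ cystine-free libraries, 4.77, 6.35, 4.05 and 7.60 in Cth-/- control libraries and 2.93, 2.68, 3.69 and 3.07 in Cth-/- cystine-free libraries. Ifit2 in SFAT stood at 25.1, 25.4, 20.9 and 27.3 CPM in Cth+/+ control libraries, 43.7, 55.8, 60.5 and 27.6 in Cth+/+ cystine-free libraries, 32.5, 40.2, 24.3 and 30.1 in Cth-/- control libraries and 14.4, 18.7, 20.3 and 16.7 in Cth-/- cystine-free libraries. Ifit2 in EFAT stood at 13.8, 18.5, 15.9 and 13.6 CPM in Cth+/+ control libraries, 13.5, 14.7, 15.2 and 11.3 in Cth+/+ cystine-free libraries, 13.1, 15.2, 11.0 and 15.7 in Cth-/- control libraries and 21.0, 15.2, 18.1 and 13.3 in Cth-/- cystine-free libraries. The 2 Cth-/- groups did not overlap in BAT and SFAT and did in EFAT, where the cystine-free mean was the higher. Ifit2 in Cth-/- mice gave -0.82 ± 0.21 (adjusted p = 0.0086) in SFAT, -0.90 ± 0.35 (adjusted p = 0.086) in BAT and 0.40 ± 0.15 (adjusted p = 0.063) in EFAT. Its response in EFAT differed from that in BAT by 1.25 ± 0.38 (adjusted p = 0.021). Ifit1, whose promoter holds a pair of ISRE core matches, had the IFIT interaction with the smallest p in SFAT, -2.61 ± 0.34 (adjusted p = 0.00021), and the only one of the 3 to pass in BAT, -2.45 ± 0.60 (adjusted p = 0.025).

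The other antiviral effectors (12 members) fell in Cth-/- mice for 9 in SFAT, 4 in BAT and 3 in EFAT, where 1 rose. These EFAT counts are not far from the 14.3% of all genes that fell there and the 14.5% that rose. The interaction passed as lower for 10 effectors in SFAT, 6 in BAT and 1 in EFAT. Mx1 (ENSMUSG00000000386, chromosome 16, 97447035 to 97462907, minus strand), a GTPase that traps influenza ribonucleoprotein and is a classic readout of type I interferon, had the largest interaction of BAT and the second largest of SFAT. Mx1 in BAT stood at 0.479, 0.0867, 0.0737 and 0.174 CPM in Cth+/+ control libraries, 4.69, 0.467, 0.904 and 0.256 in Cth+/+ cystine-free libraries, 0.248, 0.137, 0.446 and 0.416 in Cth-/- control libraries and 0.0399, 0.123, 0.0342 and 0.0989 in Cth-/- cystine-free libraries. Mx1 in SFAT stood at 5.15, 4.10, 4.29 and 4.67 CPM in Cth+/+ control libraries, 8.24, 12.6, 15.0 and 6.01 in Cth+/+ cystine-free libraries, 10.4, 12.7, 5.98 and 5.62 in Cth-/- control libraries and 1.15, 3.02, 2.44 and 2.82 in Cth-/- cystine-free libraries. Mx1 in EFAT stood at 1.90, 1.68, 1.99 and 1.51 CPM in Cth+/+ control libraries, 2.34, 2.37, 1.47 and 1.19 in Cth+/+ cystine-free libraries, 1.27, 1.61, 1.23 and 1.45 in Cth-/- control libraries and 0.948, 0.677, 0.892 and 0.513 in Cth-/- cystine-free libraries. In SFAT and EFAT the Cth-/- cystine-free libraries lay below every other library, and in BAT some Cth+/+ control libraries were as low. The BAT levels rest on few reads, 9 in the Cth-/- cystine-free group, 40 in Cth-/- control, 24 in Cth+/+ control and 166 in Cth+/+ cystine-free, 128 of these from replicate 7. Mx1 responded in Cth-/- mice with -1.85 ± 0.34 (adjusted p = 0.0014) in SFAT, -2.11 ± 1.02 (adjusted p = 0.16) in BAT and -0.77 ± 0.26 (adjusted p = 0.04) in EFAT. The interaction of Mx1 was -3.05 ± 0.48 (adjusted p = 0.00067) in SFAT, -5.02 ± 1.29 (adjusted p = 0.031) in BAT and -0.81 ± 0.37 (adjusted p = 0.15) in EFAT. Without replicate 7 the BAT values of Mx1 were -2.11 ± 0.69 (adjusted p = 0.045) for the Cth-/- response and -3.44 ± 0.93 (adjusted p = 0.041) for the interaction.

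Ifi27 (ENSMUSG00000064215, chromosome 12, 103434211 to 103440239, plus strand), a small protein of mitochondrial and nuclear membranes, was the most abundant member and stood apart from the rest. Ifi27 in BAT stood at 281, 246, 539 and 406 CPM in Cth+/+ control libraries, 577, 364, 259.5 and 317 in Cth+/+ cystine-free libraries, 239, 344, 235 and 331 in Cth-/- control libraries and 367, 351, 353 and 209 in Cth-/- cystine-free libraries. Ifi27 in SFAT stood at 348, 301, 186 and 200.1 CPM in Cth+/+ control libraries, 152, 245, 157 and 314 in Cth+/+ cystine-free libraries, 187, 178, 194 and 182 in Cth-/- control libraries and 307, 282, 194 and 160.1 in Cth-/- cystine-free libraries. Ifi27 in EFAT stood at 173, 224, 232 and 121 CPM in Cth+/+ control libraries, 185, 204, 238 and 329 in Cth+/+ cystine-free libraries, 254, 133, 285 and 85.9 in Cth-/- control libraries and 127, 56.4, 60.6 and 55.0 in Cth-/- cystine-free libraries. The Cth-/- groups overlapped in every depot, in EFAT through replicate 16 and replicate 15. Its response in Cth-/- mice was 0.38 ± 0.25 (adjusted p = 0.3) in SFAT, 0.15 ± 0.26 (adjusted p = 0.74) in BAT and -1.25 ± 0.35 (adjusted p = 0.017) in EFAT. The difference from EFAT was -1.44 ± 0.45 (adjusted p = 0.025) against BAT and -1.67 ± 0.45 (adjusted p = 0.027) against SFAT, downward where the other members that passed went upward. In SFAT it was 1 of the 6 members whose interaction did not pass, at 0.63 ± 0.35 (adjusted p = 0.22).

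Parp14 (ENSMUSG00000034422, chromosome 16, 35832874 to 35871544, minus strand), an ADP-ribosyl transferase, was the second most abundant effector. Parp14 in BAT stood at 16.3, 17.1, 18.8 and 17.0 CPM in Cth+/+ control libraries, 31.2, 17.0, 19.9 and 14.3 in Cth+/+ cystine-free libraries, 15.9, 20.2, 18.4 and 25.7 in Cth-/- control libraries and 13.7, 14.0, 14.0 and 15.2 in Cth-/- cystine-free libraries. Parp14 in SFAT stood at 80.8, 82.6, 90.1 and 95.1 CPM in Cth+/+ control libraries, 142, 142, 176 and 87.9 in Cth+/+ cystine-free libraries, 106, 132, 94.3 and 117 in Cth-/- control libraries and 62.0, 94.8, 82.6 and 69.1 in Cth-/- cystine-free libraries. Parp14 in EFAT stood at 48.7, 59.8, 60.9 and 48.7 CPM in Cth+/+ control libraries, 59.3, 56.0, 75.1 and 38.1 in Cth+/+ cystine-free libraries, 53.2, 66.5, 48.0 and 71.8 in Cth-/- control libraries and 58.1, 64.5, 58.2 and 57.9 in Cth-/- cystine-free libraries. The Cth-/- groups did not overlap in BAT, met at the edge in SFAT and overlapped in EFAT. Parp14 gave -0.51 ± 0.18 (adjusted p = 0.046) in SFAT, -0.51 ± 0.19 (adjusted p = 0.072) in BAT and 0.10 ± 0.18 (adjusted p = 0.68) in EFAT in Cth-/- mice, and its interaction passed in SFAT with -1.17 ± 0.25 (adjusted p = 0.005). Without replicate 7 its Cth-/- response in BAT passed at -0.50 ± 0.13 (adjusted p = 0.016).

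Rsad2 (viperin), an enzyme that makes a chain-terminating nucleotide, rose in EFAT, while its neighbour Cmpk2, the kinase that supplies its substrate, fell in SFAT and BAT. Rsad2 in BAT stood at 9.75, 8.37, 11.5 and 9.29 CPM in Cth+/+ control libraries, 28.4, 9.16, 6.91 and 7.54 in Cth+/+ cystine-free libraries, 14.4, 22.8, 11.5 and 28.7 in Cth-/- control libraries and 19.5, 17.9, 18.0 and 10.4 in Cth-/- cystine-free libraries. Rsad2 in SFAT stood at 30.7, 28.4, 21.7 and 26.4 CPM in Cth+/+ control libraries, 34.0, 69.6, 45.2 and 38.2 in Cth+/+ cystine-free libraries, 32.3, 38.2, 24.7 and 31.9 in Cth-/- control libraries and 28.6, 39.0, 38.9 and 23.2 in Cth-/- cystine-free libraries. Rsad2 in EFAT stood at 11.4, 16.3, 14.1 and 9.23 CPM in Cth+/+ control libraries, 21.4, 17.6, 18.1 and 12.3 in Cth+/+ cystine-free libraries, 10.8, 15.2, 12.1 and 18.6 in Cth-/- control libraries and 25.4, 43.5, 35.7 and 27.8 in Cth-/- cystine-free libraries. In EFAT the 4 Cth-/- cystine-free libraries were above all 12 others, and in BAT and SFAT the Cth-/- groups overlapped. Rsad2 rose in Cth-/- EFAT by 1.34 ± 0.24 (adjusted p = 0.0013), and its values were -0.24 ± 0.38 (adjusted p = 0.69) in BAT and 0.06 ± 0.21 (adjusted p = 0.87) in SFAT. Cmpk2 fell in Cth-/- mice with -0.83 ± 0.24 (adjusted p = 0.026) in BAT and -0.72 ± 0.17 (adjusted p = 0.0065) in SFAT and gave 0.11 ± 0.19 (adjusted p = 0.67) in EFAT. The interaction of Rsad2 did not pass in any depot: -0.74 ± 0.29 (adjusted p = 0.083) in SFAT, -0.67 ± 0.54 (adjusted p = 0.5) in BAT and 0.90 ± 0.33 (adjusted p = 0.091) in EFAT.

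Ifi205, a member of the interferon-inducible p200 family, was the member that rose with the diet in Cth+/+ BAT. Ifi205 in BAT stood at 3.83, 3.43, 1.92 and 2.40 CPM in Cth+/+ control libraries, 10.5, 6.58, 12.3 and 10.1 in Cth+/+ cystine-free libraries, 3.23, 3.68, 6.28 and 2.86 in Cth-/- control libraries and 3.17, 3.67, 2.80 and 2.82 in Cth-/- cystine-free libraries. Every Cth+/+ cystine-free library held more than any other BAT library and the call stood without replicate 7. Ifi205 rose by 1.78 ± 0.27 (adjusted p = 0.031) in Cth+/+ BAT, against -0.37 ± 0.27 (adjusted p = 0.37) in Cth-/- BAT, an interaction of -2.15 ± 0.38 (adjusted p = 0.0043). The call in Cth+/+ mice was lost without replicate 1, 2, 3, 4, 10 or 11, which left 0 members called. In SFAT Ifi205 gave 1.39 ± 0.25 (adjusted p = 0.051) in Cth+/+ mice, an interaction of -2.01 ± 0.35 (adjusted p = 0.0015), and -0.62 ± 0.25 (adjusted p = 0.079) in Cth-/- mice, where it did not pass while most effectors did.

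Ifi35, a cytoplasmic leucine zipper protein, was the second member past the EFAT interaction. Ifi35 in EFAT stood at 14.7, 18.9, 21.1 and 14.3 CPM in Cth+/+ control libraries, 19.9, 22.9, 21.2 and 22.7 in Cth+/+ cystine-free libraries, 19.2, 15.6, 19.0 and 14.5 in Cth-/- control libraries and 12.9, 9.12, 12.3 and 8.68 in Cth-/- cystine-free libraries. Its Cth-/- cystine-free libraries in EFAT were below all 12 others. The EFAT interaction was -0.88 ± 0.20 (adjusted p = 0.019) and the Cth-/- response -0.56 ± 0.14 (adjusted p = 0.011). Bst2 (tetherin), which holds budding virions at the membrane, fell in Cth-/- mice with -1.31 ± 0.38 (adjusted p = 0.028) in BAT and -0.97 ± 0.24 (adjusted p = 0.0086) in SFAT, and gave -0.74 ± 0.29 (adjusted p = 0.066) in EFAT. Rtp4 fell, with -1.36 ± 0.34 (adjusted p = 0.012) and -0.83 ± 0.18 (adjusted p = 0.004) in BAT and SFAT, and Xaf1 with -0.84 ± 0.23 (adjusted p = 0.021) and -0.62 ± 0.17 (adjusted p = 0.016). Mx2 and Ifi44 fell in SFAT, with -1.25 ± 0.28 (adjusted p = 0.0045) and -0.91 ± 0.29 (adjusted p = 0.032). Mx2 is annotated in these data as a polymorphic pseudogene.

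Among the interferon-induced GTPases, 3 of 5 fell in Cth-/- BAT, 1 in SFAT and 1 in EFAT, and the interaction passed as lower for 2, 3 and 0. The counts of 1 are near the 13.6% and 14.3% of all genes that fell in SFAT and EFAT. Gbp2 (ENSMUSG00000028270, chromosome 3, 142620602 to 142638008, plus strand), a guanylate-binding protein that coats vacuoles, fell in every depot. Gbp2 in BAT stood at 24.7, 24.4, 20.7 and 17.1 CPM in Cth+/+ control libraries, 28.3, 18.0, 18.5 and 16.3 in Cth+/+ cystine-free libraries, 23.8, 16.3, 24.9 and 23.8 in Cth-/- control libraries and 8.10, 8.79, 9.43 and 9.89 in Cth-/- cystine-free libraries. Gbp2 in SFAT stood at 66.8, 85.1, 83.7 and 81.8 CPM in Cth+/+ control libraries, 76.3, 92.7, 82.6 and 69.8 in Cth+/+ cystine-free libraries, 86.0, 74.8, 71.9 and 66.9 in Cth-/- control libraries and 37.1, 44.4, 49.6 and 50.1 in Cth-/- cystine-free libraries. Gbp2 in EFAT stood at 68.1, 81.5, 63.8 and 58.1 CPM in Cth+/+ control libraries, 51.0, 65.6, 56.6 and 64.8 in Cth+/+ cystine-free libraries, 61.3, 57.6, 60.0 and 59.8 in Cth-/- control libraries and 31.4, 36.3, 37.1 and 38.0 in Cth-/- cystine-free libraries. The Cth-/- cystine-free libraries were the lowest 4 of 16 in each depot, with no overlap. Gbp2 fell in Cth-/- mice, with -0.69 ± 0.12 (adjusted p = 0.0011) in SFAT, -1.31 ± 0.18 (adjusted p = 0.00021) in BAT and -0.63 ± 0.11 (adjusted p = 0.001) in EFAT; the smallest p of any member in BAT and EFAT for this comparison was that of Gbp2. The interaction of Gbp2 was -0.70 ± 0.17 (adjusted p = 0.01) in SFAT, -1.22 ± 0.25 (adjusted p = 0.0098) in BAT and -0.42 ± 0.15 (adjusted p = 0.081) in EFAT, and its response in Cth+/+ mice was -0.09 ± 0.17 (adjusted p = 0.93) in BAT and 0.02 ± 0.12 (adjusted p = 0.97) in SFAT.

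Gbp7 (ENSMUSG00000040253, chromosome 3, 142530342 to 142550149, plus strand), its neighbour, did not follow. Gbp7 in BAT stood at 14.5, 15.7, 20.4 and 13.3 CPM in Cth+/+ control libraries, 22.4, 13.1, 20.6 and 9.84 in Cth+/+ cystine-free libraries, 17.2, 18.6, 15.1 and 25.2 in Cth-/- control libraries and 11.9, 11.7, 12.5 and 15.2 in Cth-/- cystine-free libraries. Gbp7 in SFAT stood at 50.4, 57.2, 48.6 and 69.8 CPM in Cth+/+ control libraries, 78.2, 86.4, 94.8 and 53.7 in Cth+/+ cystine-free libraries, 64.3, 79.8, 58.1 and 74.7 in Cth-/- control libraries and 45.5, 68.4, 68.9 and 85.2 in Cth-/- cystine-free libraries. Gbp7 in EFAT stood at 36.7, 45.0, 46.3 and 39.3 CPM in Cth+/+ control libraries, 35.9, 39.2, 49.9 and 32.0 in Cth+/+ cystine-free libraries, 35.9, 51.7, 34.4 and 57.1 in Cth-/- control libraries and 41.2, 56.6, 50.4 and 52.0 in Cth-/- cystine-free libraries. The Cth-/- groups overlapped in each depot. Gbp7 gave -0.01 ± 0.20 (adjusted p = 0.98) in SFAT, -0.59 ± 0.23 (adjusted p = 0.088) in BAT and 0.27 ± 0.19 (adjusted p = 0.28) in EFAT in Cth-/- mice, and its SFAT interaction was -0.48 ± 0.28 (adjusted p = 0.25). Gbp3 fell in Cth-/- BAT with -1.10 ± 0.35 (adjusted p = 0.039), as did Igtp, which guards vacuoles, with -0.93 ± 0.31 (adjusted p = 0.049). Irgm1, the regulator of that family, gave -0.43 ± 0.21 (adjusted p = 0.16) in BAT and passed the interaction in SFAT with -0.98 ± 0.22 (adjusted p = 0.0067), where Igtp gave -0.71 ± 0.30 (adjusted p = 0.11).

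**Figure D5:**
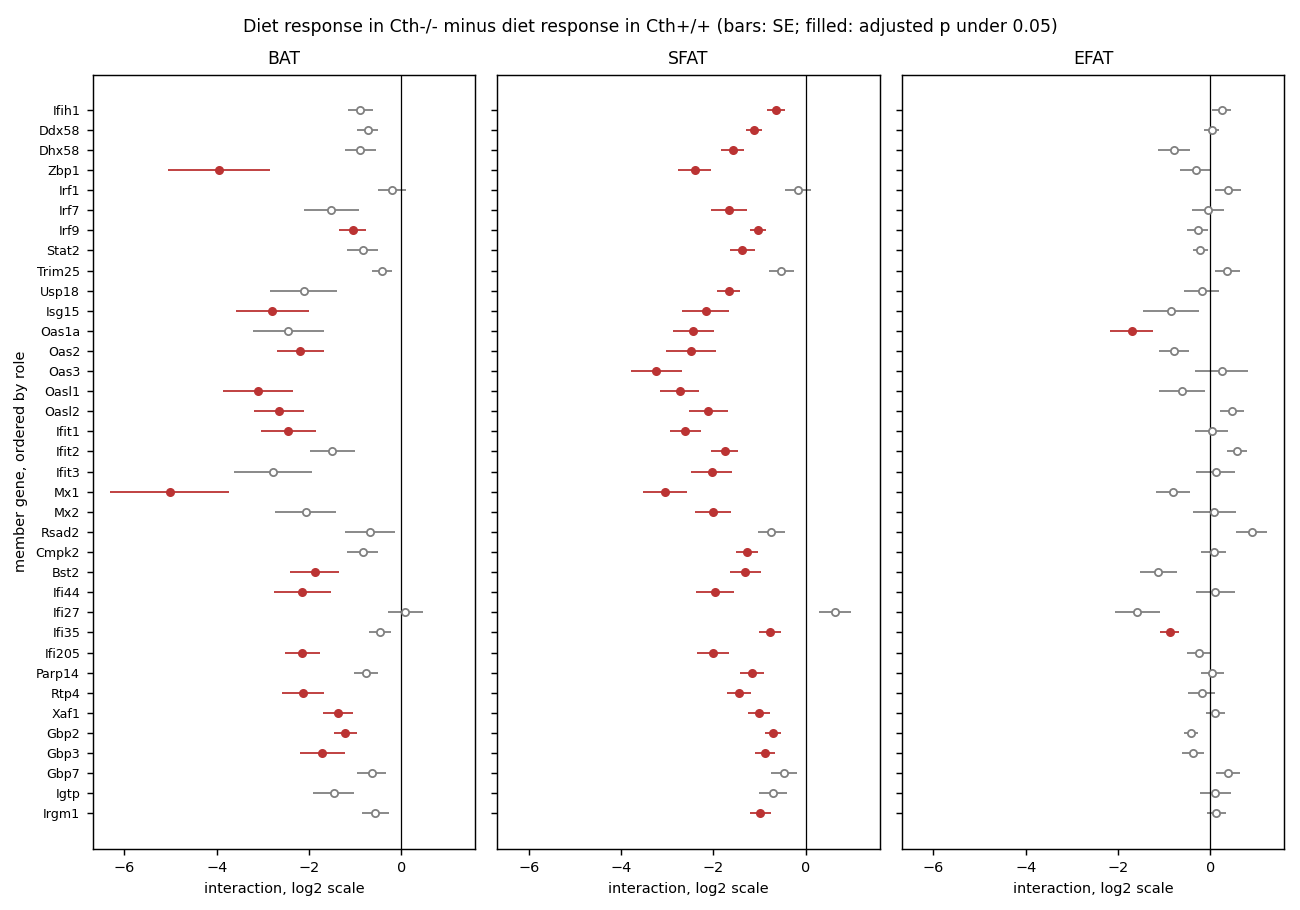
The genotype by diet interaction of each member (rows, ordered by role) on the log2 scale in each depot, with bars for the SE and filled points for an adjusted p under 0.05. In SFAT 30 of 36 points are filled and negative, in EFAT 2 of 36 and in BAT 15 of 35; Oas3 has no point in BAT.

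By genotype, most members passed the test on the cystine-free diet in BAT and SFAT, and none did on the control diet. On the control diet no member passed between Cth-/- and Cth+/+ mice in BAT (2.1% of all genes changed), SFAT (0.103%) or EFAT (0.0464%); at an unadjusted p under 0.05 there were 1, 5 and 3 members. DESeq2 called 1 in SFAT and 0 in each of BAT and EFAT, and leaving replicate 7 out of the BAT fit gave 1 in BAT. On the cystine-free diet 30 of 35 members were lower in Cth-/- BAT (17.1% of all genes lower, 31.6% in either direction). Without replicate 7 these were 22 lower and 1 higher. In SFAT 29 of 36 were lower (19.4% of all genes lower, 37.5% in either direction). In EFAT 11 of 36 were lower and 4 higher, where 3382 of all 17248 genes were lower and 3459 higher. The 41.7% of members called in EFAT is near the 39.7% of all genes. In BAT Mx1 was lower, with -4.43 ± 0.93 (adjusted p = 0.002), and with -2.85 ± 0.71 (adjusted p = 0.0072) without replicate 7. Gbp2 was lower there with -1.18 ± 0.18 (adjusted p = 0.00018). In SFAT Ifit1 was lower, with -2.33 ± 0.25 (adjusted p = 7.5e-06), with 32.9, 73.3, 48.2 and 36.1 CPM in the Cth+/+ and 6.92, 13.5, 7.86 and 9.09 CPM in the Cth-/- libraries, which did not overlap. Higher in Cth-/- EFAT were Rsad2 (1.06 ± 0.24), Irf1 (0.59 ± 0.20), Trim25 (0.56 ± 0.19) and Ifit2 (0.42 ± 0.15), with adjusted p of 0.0033, 0.032, 0.031 and 0.043.

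Ranges of the libraries, read without a fitted model, went in the same directions but did not always match the counts of the test. The test called 11 members as lower in Cth-/- BAT and 0 in Cth+/+ SFAT, fewer than lay apart by range. By diet in Cth-/- mice the cystine-free libraries lay wholly below the control libraries for 25 of 36 members in SFAT (15.5% of all genes tested), 21 in BAT (11.8%) and 6 in EFAT (15.9%), and wholly above for Trim25 and Rsad2 in EFAT (10.9%). In Cth+/+ mice they lay wholly above for 14 members in SFAT (3.31%), Ifit1 and Ifi205 in BAT (2.3%) and none in EFAT (1.41%).

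Between depots, the Cth-/- diet response of the members was tested in a fit of all 48 libraries. No member differed between SFAT and BAT (2.16% of all 18348 genes did; 4 members had an unadjusted p under 0.05, and DESeq2 called 0). Between EFAT and BAT 8 differed (16.2% of all genes): Ifih1, Oasl2, Ifit2, Rsad2, Cmpk2, Xaf1 and Gbp2 with a response higher in EFAT and Ifi27 with a lower one. Between EFAT and SFAT 2 differed (4.38%), Oasl2 and Ifi27. At 22.2% and 5.56% of the members, the counts of 8 and 2 are near the share of all genes in this fit, which has no block. The difference of the interaction itself, added after the counts by depot were seen, passed for 0 members between SFAT and BAT (0.654% of all genes; none had an unadjusted p under 0.05), 9 between EFAT and BAT (4.14%) and 6 between EFAT and SFAT (3.44%). Those higher in EFAT than in SFAT were Ddx58, Oasl2, Ifit1, Ifit2 and Ifi205, by 1.12 ± 0.26, 2.56 ± 0.61, 2.62 ± 0.66, 2.31 ± 0.52 and 1.73 ± 0.47, and Ifi27 was lower, with -2.25 ± 0.63. With the replicate number as a block, more members passed in each comparison with EFAT, by the counts given with the other processing choices at the end. The counts above, from the fit without a block, moved when single libraries were left out. The 8 became 5 without BAT replicate 15, or EFAT 12 or 17, and 2 without EFAT 14. The 2 became 0 without SFAT 13, 15, 16 or 17, or EFAT 12, 14, 17, 18 or 20, 1 without SFAT 12 and 4 without EFAT 15. The 9 became 6 without BAT replicate 7, 5 without BAT 3 or 15, 4 without BAT 10, 14, 16 or 18 or EFAT 11, 3 without BAT 4 or EFAT 12 or 20, and 2 without EFAT 14. The 6 became 3 without SFAT 16 or EFAT 11 or 14, 10 without EFAT 15 and 14 without SFAT 11. One member, in place of 0, differed between SFAT and BAT without BAT replicate 13.

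On the control diet the depots differed in level. In Cth+/+ mice on the control diet 33 of 36 members were higher in SFAT than in BAT (27.1% of all genes higher, 25.9% lower, 53% in either direction) and 1 was lower, Ifi27. EFAT against BAT gave 9 higher and 3 lower (33.1% and 26.9% of all genes, 60% in all), and EFAT against SFAT 0 higher and 29 lower (9.57% and 5.66%, 15.2% in all). On a scale common to all 48 libraries Ifi205 stood at 53.8 ± 6.70 CPM in SFAT, 22.8 ± 1.23 in EFAT and 4.88 ± 1.52 in BAT (mean ± SD, n = 4). Each neighbouring pair in that order passed the test. Irf7 stood at 26.8 ± 4.84, 9.87 ± 2.62 and 6.21 ± 1.26 CPM in the same order, with SFAT above both other depots and EFAT against BAT short of the test at 0.63 ± 0.36 (adjusted p = 0.13). Ifi27 was highest in BAT, at 617 ± 215 CPM against 209 ± 62.5 in SFAT and 138 ± 36.2 in EFAT, and the difference of the white depots did not pass, at -0.62 ± 0.32 (adjusted p = 0.2). This common scaling raised BAT values by a median of 0.73 on the log2 scale and moved SFAT and EFAT values by -0.30 and -0.44 relative to scaling within the depot.

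The rest of the interferon pathway was read from lists of 122 further symbols, 118 of them in the table. Their counts stand against the shares of all genes that fell in Cth-/- mice, 13.6% in SFAT, 10.2% in BAT and 14.3% in EFAT. The 19 type I and III interferon genes and Ifng did not pass the filter on low counts in any depot; Ifnb1 had at most 1 read in a library, 16 interferon genes had none in all 48, and Ifng reached 32. Receptors moved in opposite directions in Cth-/- mice: Ifngr1 rose by 0.62 ± 0.10 (adjusted p = 0.00069) in SFAT, 0.52 ± 0.12 (adjusted p = 0.0065) in BAT and 0.56 ± 0.13 (adjusted p = 0.0065) in EFAT. Its partner Ifngr2 fell with -0.64 ± 0.11 (adjusted p = 0.00075) in SFAT, -0.38 ± 0.11 (adjusted p = 0.03) in BAT and -0.59 ± 0.13 (adjusted p = 0.0059) in EFAT. Ifnar1, a chain of the type I receptor, fell in SFAT with -0.38 ± 0.09 (adjusted p = 0.0082) and in EFAT with -0.30 ± 0.07 (adjusted p = 0.0059). Of 6 receptor genes 1 rose and 1 fell in BAT, 1 rose and 2 fell in SFAT, and 1 rose and 2 fell in EFAT.

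Of the kinases Jak1, Jak2 and Tyk2, Jak2 alone passed by diet in Cth-/- mice, in BAT with -0.30 ± 0.10 (adjusted p = 0.04), and Jak1 passed the interaction in SFAT with -0.48 ± 0.14 (adjusted p = 0.021). Of 16 genes of the nucleic acid sensing relay 4 fell in Cth-/- BAT, 8 fell and 1 rose in SFAT and 3 fell in EFAT, the last near the share of all genes. The interaction passed as lower for 9 in SFAT, 5 in BAT and none in EFAT. Tlr9, the endosomal DNA receptor, fell in SFAT with -1.89 ± 0.42 (adjusted p = 0.0044), Irf5 with -1.35 ± 0.30 (adjusted p = 0.004), Irf8 with -1.33 ± 0.22 (adjusted p = 0.00055) and Tmem173 (STING) with -1.28 ± 0.19 (adjusted p = 0.00032); Tlr9, Irf5 and Irf8 are known from immune cells more than from adipocytes. Mavs, the adaptor of Ddx58 and Ifih1, rose in SFAT by 0.44 ± 0.13 (adjusted p = 0.019). Of the feedback inhibitors 4 of 8 fell in SFAT, 1 of 8 in EFAT and 2 of 7 tested in BAT, led in each depot by Ptpn6, a phosphatase of blood cells: -1.91 ± 0.34 (adjusted p = 0.0012) in SFAT, -1.56 ± 0.30 (adjusted p = 0.0028) in BAT and -0.64 ± 0.20 (adjusted p = 0.028) in EFAT.

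Other interferon-stimulated genes, 65 rows not among the 36, were counted in the same way. In Cth-/- mice 17 of 56 tested fell and 1 rose in BAT, 33 of 64 fell and 0 rose in SFAT, and 9 of 64 fell and 4 rose in EFAT. The EFAT count is at the 14.3% of all genes that fell there and says nothing particular of these genes; 10.2% of all genes fell in BAT and 13.6% in SFAT. The interaction passed as lower for 35 in SFAT (12.4% of all genes), 11 in BAT (4.32%) and 2 in EFAT (5.35%), and as higher for 1, in EFAT. Median changes in Cth-/- mice were -0.57 in BAT, -0.48 in SFAT and -0.0038 in EFAT. Lgals3bp, a secreted binding protein, fell in all 3 depots, with -1.12 ± 0.16 (adjusted p = 0.00018) in SFAT, -1.92 ± 0.22 (adjusted p = 4.5e-05) in BAT and -0.77 ± 0.18 (adjusted p = 0.0072) in EFAT. Ifi27l2a did so with -1.40 ± 0.39 (adjusted p = 0.015) in SFAT, -1.38 ± 0.33 (adjusted p = 0.01) in BAT and -1.52 ± 0.53 (adjusted p = 0.044) in EFAT. In BAT Ifit3b and Slfn8, a schlafen family member, fell with -2.06 ± 0.63 (adjusted p = 0.034) and -1.94 ± 0.50 (adjusted p = 0.015). Ms4a4c and the chemokine Cxcl10 led in SFAT, with -3.40 ± 0.64 (adjusted p = 0.0016) and -1.95 ± 0.45 (adjusted p = 0.0055), followed by Ifit1bl1 and Oas1g with -1.91 ± 0.46 (adjusted p = 0.0071) and -1.70 ± 0.40 (adjusted p = 0.0063). In EFAT Tdrd7 and Gbp6 fell with -1.01 ± 0.14 (adjusted p = 0.00022) and -0.82 ± 0.17 (adjusted p = 0.0032). The symbol Gbp6 has 2 rows, and the value is that of the more abundant; the other did not pass. Ifitm1 rose in EFAT by 1.88 ± 0.36 (adjusted p = 0.002), and Helz2 rose in BAT and EFAT, by 0.51 ± 0.15 (adjusted p = 0.031) and 0.49 ± 0.13 (adjusted p = 0.012).

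Libraries also fell into 2 sets by reads of Gm43512 (set A under 0.1 CPM, set B above it; 9 and 7 libraries in each depot), and the sets were unevenly spread over the groups. Within the sets the interaction passed for 23 members in each set of SFAT, and for 4 in set A and 0 in set B of BAT. By diet in Cth-/- mice 21 members passed in set A and 15 in set B of SFAT, and 3 in set A and 1 in set B of BAT. In EFAT no member passed within set A for the interaction or for either set in Cth-/- mice, and Cth+/+ cystine-free EFAT had no set B library. The part of the set in the counts was not tested beyond these fits.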

How the data were processed

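Poly(A) RNA-seq of 48 libraries was deposited as 1 table of expected counts per gene; the authors' tools were FastQC, STAR, Picard and RSEM on the mouse build mm10, per the submitters' processing notes, and the sources used here give no versions and no annotation. Expected counts, whose decimals reflect reads shared between genes, were rounded to whole numbers. Columns were matched to samples by the column names in the labels, and 0 sample columns were left unused. Genomic positions come from the reference annotation of GRCm38, matched by gene identifier without version (26 of 36 member identifiers matched with the version too).

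Each depot was fitted on its 16 libraries in 4 groups with edgeR 4.0.16 (R 4.3.3, limma 3.58.1): TMM scaling, the filterByExpr filter (minimum count 10, minimum total 15), the quasi-likelihood F-test, two-sided, and Benjamini-Hochberg adjustment over all genes tested, with a threshold of 0.05. Differences between depots used 1 fit of all 48 libraries in 12 groups, without an animal term. SE is the log2 fold change divided by the square root of F. Alternatives were DESeq2 1.42.0, RLE scaling, no filter, robust dispersion, fits of only the groups compared, a replicate block, library set as a term or split, and leaving out each library. Python 3.11.15, pandas 2.3.3 and matplotlib 3.10.9 drew the figures and searched the promoters.

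Values in every library are given for the 2 most abundant members of each role, up to 3 members per depot with the largest interaction among those that passed, and members that passed against the direction of most; members that did not pass while most of their role did are named with values, as are up to 4 passing genes of each pathway list. Other members are named as examples chosen after their values were seen. The members, the roles and all lists were chosen with earlier results of these data known. The totals of 16245822 to 46031102 reads per library limit the precision of low genes such as Mx1 and Oas3 in BAT. The labels do not say whether a replicate number stands for the same animal across depots. For SFAT and BAT, EFAT and BAT, and EFAT and SFAT, same-numbered libraries correlated above 0.1 in 10, 6 and 10 of 16 cases. Among the 4 libraries of the group, the own number correlated best in 9, 5 and 9 of 16. Shared animals are thus possible, and the main fits across depots did not model them. A gene of the pathway lists is not reported here.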

Additional observations from a re-analysis of the deposited data

Results flagged for a closer look

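In 180 groups of 4 libraries tested for the members named with values in every library, 10 held a library whose gap to the nearest other, over the range of the group, passed Dixon's 95% critical value for 4 samples; chance alone gives about 1 in 20. In BAT, replicate 7 (Cth+/+ cystine-free) stood above the other 3 libraries for Ifit3 (38.0 CPM against 4.83 to 5.69) and Mx1 (4.69 CPM against 0.256 to 0.904). Replicate 16 (Cth-/- cystine-free) was high for Oas2 at 1.78 CPM, replicate 15 (Cth-/- control) was high for Oasl1 at 1.22 CPM, replicate 20 (Cth-/- cystine-free) was low for Ifi27 at 209 CPM, and replicate 13 (Cth-/- control) was low for Gbp2 at 16.3 CPM. In EFAT, the Cth+/+ cystine-free replicates 11 and 10 stood apart for Ddx58 (low, 32.7 CPM) and Oas2 (high, 10.3 CPM). Among the Cth-/- cystine-free libraries of EFAT, replicate 16 was high for Ifi27 at 127 CPM against 55.0 to 60.6, and replicate 17 was high for Parp14 at 64.5 CPM.

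The diet response differed between the genotypes, by the interaction test, for 30 members in SFAT (21.7% of all genes), 15 in BAT (6.42%) and 2 in EFAT (10.4%). The diet response of Cth-/- mice differed between EFAT and BAT for 8 members (16.2% of all genes) and between EFAT and SFAT for 2 (4.38%). In the fit without a block both counts, 8 and 2, are near the share of all genes. The interaction itself differed between EFAT and BAT for 9 members (4.14%) and between EFAT and SFAT for 6 (3.44%).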

How the results depend on the processing

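Of the results for named members, 2110 kept their side of the threshold under the alternatives, 123 were no longer past it and 43 came past it. None changed sign while called. The 2110 include any result that changed sign while short of the threshold in both fits. The following are counts of members called. DESeq2 gave 4 for diet in Cth+/+ BAT, 20 for diet in Cth+/+ SFAT, 1 for genotype on the control diet in SFAT, 5 for the EFAT interaction, 4 for the Cth-/- response of EFAT minus SFAT and 14 for the interaction of EFAT minus SFAT. RLE scaling gave 1 for diet in Cth+/+ SFAT. Without the low-count filter that count was 1 too, the EFAT interaction 1, the Cth-/- response of EFAT minus SFAT 1 and the interaction of EFAT minus BAT 3. Fits of only the 2 groups compared gave 20 for diet in Cth-/- BAT, 0 for diet in Cth+/+ BAT and 5 for diet in Cth-/- EFAT.

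With library set as a term, diet in Cth+/+ SFAT had 2, diet in Cth-/- EFAT 4, the EFAT interaction 0, genotype on the cystine-free diet in EFAT 6, and the interaction of EFAT minus BAT and of EFAT minus SFAT 3 each. The following splits and omissions were chosen after seeing the data, as were all tests of the interaction between depots. Within set A, BAT had 3 for diet in Cth-/-, 0 for diet in Cth+/+ and 4 for the interaction, SFAT 3 for genotype on the control diet, and EFAT 0 for diet in Cth-/-, 0 for the interaction and 0 for genotype on the cystine-free diet. Within set B, BAT had 1 for diet in Cth-/-, 0 for diet in Cth+/+, 0 for the interaction and 0 for genotype on the cystine-free diet, SFAT had 15 for diet in Cth-/- and 10 for diet in Cth+/+, and EFAT 0 for diet in Cth-/-. The EFAT interaction and Cth+/+ response could not be fitted in set B. Without BAT replicate 7 the fit of the other 15 libraries gave 22 for diet in Cth-/-, 9 for the interaction and 1 for genotype on the control diet.

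The replicate numbers are shared across depots only, and with them as a replicate block the Cth-/- response of EFAT minus BAT had 15, that of EFAT minus SFAT 9, the interaction of EFAT minus BAT 14 and that of EFAT minus SFAT 18. The share of all genes called in the block fit is not given here, so these counts are not set against it. The block left the other depot counts within 1.5 times, and 9, 5 and 9 of 16 libraries correlated best with their own number in SFAT and BAT, EFAT and BAT, and EFAT and SFAT. Leaving out 1 library of the groups compared at a time, diet in Cth-/- gave 5 to 10 in BAT, 21 to 27 in SFAT and 4 to 9 in EFAT. Diet in Cth+/+ gave 0 to 1 in BAT and 0 to 14 in SFAT. The interaction gave 5 to 21 in BAT, 28 to 32 in SFAT and 1 to 5 in EFAT. Genotype on the cystine-free diet gave 23 to 31, 29 to 32 and 12 to 18. The Cth-/- response gave 0 to 1 for SFAT minus BAT, 2 to 11 for EFAT minus BAT and 0 to 4 for EFAT minus SFAT, and the interaction 2 to 13 for EFAT minus BAT and 3 to 14 for EFAT minus SFAT. The control-diet level of Cth+/+ mice gave 28 to 33, 8 to 12 and 21 to 29. The cause of these moves was not tested beyond the smaller number of libraries in the splits. Few reads limit low members in BAT, where Oas3 was not tested and Mx1 had 9 reads in a group.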
